A study of Rattus norvegicus with 18 samples.

Results

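The genes Ccn1, Ccn2, Acta2, Vim, Col1a1, Col1a2, Lox, Tgfb1 and Tgfbr2, which encode matricellular proteins, stellate cell and mesenchymal proteins, fibrillar matrix and the TGF-beta signal, were followed in rat liver during the first 2 h after partial hepatectomy (PH, removal of part of the liver, after which the remainder regrows). They were chosen by gene symbol in the array annotation, with Cyr61 read as Ccn1 and Ctgf as Ccn2. The 9 genes have 12 probe sets, out of 13999 named genes and 31042 probe sets on the array, and all 12 passed the filter on low signal that left 22125 probe sets for testing. The animals were Sprague-Dawley rats aged 12 weeks, and RNA from the right liver lobe, flushed of blood, was hybridised to 18 Affymetrix Rat Genome 230 2.0 arrays, 3 for each of 6 groups. Those groups were sympathectomy with PH (SPH), vagotomy with PH (VPH), total liver denervation with PH (TDPH) and PH with the nerves left in place, each taken at 2 h, then a sham operation at 2 h and normal liver at 0 h. The 3 denervated groups were thus also hepatectomized, and no group was denervated without PH, so an effect of the denervation surgery alone and a changed response to PH cannot be told apart. Likewise, no unoperated liver was taken at 2 h, so in sham against normal the operation and the 2 h that passed cannot be told apart. Arrays within a group are technical replicates by their labels, so errors and p-values here cover variation among arrays only, n is a number of arrays, and how many animals a group holds is not given in these sources.

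Ccn1 and Ccn2 encode secreted matricellular proteins that bind integrins and heparan sulfate and signal to cells without building the matrix. In several cell types both are rapidly induced targets of the transcriptional coactivators YAP and TAZ, which act through TEAD factors, and Ccn2 is also a well known target of TGF-beta. Hepatic stellate cells are the pericytes of the liver sinusoid. When activated they express smooth muscle actin (Acta2) and lay down type I collagen (Col1a1 and Col1a2), which lysyl oxidase (Lox) crosslinks. Vim encodes vimentin, an intermediate filament protein of stellate cells, endothelium and leukocytes. Tgfb1 encodes a cytokine, secreted in latent form, that restrains hepatocyte proliferation and activates stellate cells, and Tgfbr2 encodes its type II receptor kinase, which binds the ligand and recruits the type I receptor.

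The deposited values are signal intensities on a linear scale. Their trimmed mean was 500 on all 18 arrays, and the median signal per array lay between 114.5 and 150.4. Array signals correlated at 0.947 to 0.977 within groups and at 0.929 to 0.952 between groups, with no identical arrays. The SPH arrays were spread among themselves in 5 neutrophil markers, whose summed signal was 41973, 25587 and 20102 on them, and in Cd74, the brightest of 10 lymphocyte markers, at 6549, 8276 and 20112. The other 9 lymphocyte markers summed to 2785, 2914 and 3312 on the same arrays. The sham arrays stood apart in the ratios of 3′ to 5′ control probe sets, a sign of RNA quality, at 2.11 to 2.25 for Actb and 1.35 on each for Gapdh, against 1.65 to 2.05 and 1.17 to 1.32 on the other 15 arrays. The part of RNA quality in differences from sham was not tested. All 8 hepatocyte markers passed the filter, with summed signals of 270403 to 401144 over all arrays. In what follows, differences are of mean log2(signal + 12) between groups, from limma fitted to all arrays, and "rose" or "fell" is used only of a probe set with a Benjamini-Hochberg adjusted p below 0.05 whose difference was also 1 or more in size, which is 2-fold on that scale. This scale understates changes of dim probe sets. Signals of different probe sets are not compared, since each binds its target with its own strength. Because the tissue was bulk liver, fewer cells of a type and less RNA per cell cannot be told apart.

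PH was compared with the sham operation to find genes that respond to loss of liver mass. Here Ccn1, Ccn2, Vim and Acta2 rose together, and so did 1 of 2 Col1a2 probe sets, while Lox, Tgfb1 and Tgfbr2 did not pass the test. In all, 5 of 12 probe sets rose and none fell, where 1.98% of all probe sets tested rose and 2.39% fell (438 and 528 of them, against 628 and 312 with each array centred on its median). The median difference of the 12 was 1.04, against -0.11 over all probe sets tested. For 8 of 12 probe sets the 3 PH arrays did not overlap with the 3 sham arrays, as was the case for 37.8% of all probe sets.

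Ccn1 showed the largest difference of the 12 between PH and sham. Its signal was 665, 671 and 750.2 on the SPH arrays, 488, 511 and 501 on the VPH arrays, 411, 416 and 375 on the TDPH arrays, and 646, 649 and 648 on the PH arrays. After the sham operation it was 85.03, 85.98 and 65.996, and in normal liver 376, 333 and 397. The sham arrays were thus lowest, below every other array, and normal liver lay between sham and PH. They were also the arrays with the highest 3′ to 5′ ratios, and none of the 3 exceeded its array's 40th percentile, the level used to filter low signals. Ccn1 rose in PH to 8.20 times the mean signal in sham, a log2 difference of 2.87 (SE 0.11, adjusted p = 3.98e-13). It fell in sham relative to normal liver with a difference of -2.07 (SE 0.11, adjusted p = 7.16e-11). PH relative to normal liver differed by 0.80 (SE 0.11, adjusted p = 1.79e-05), under the 2-fold threshold, although all PH arrays lay above all normal arrays. With each array centred on its median that difference was 1.06, which passed. In order of mean signal the groups ran SPH, PH, VPH, TDPH, normal and sham, and among neighbours only TDPH and normal overlapped.

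Ccn2 was low in both sham and normal liver. The arrays read 707, 693 and 662 in SPH, 463, 513 and 457 in VPH, 357, 297 and 296 in TDPH and 798, 742 and 643 in PH. They read 89.4, 171 and 169 in sham and 110.2, 106.5 and 173 in normal liver, so these last groups overlapped with each other and with none of the hepatectomized groups. Ccn2 rose in PH relative to sham by 2.30 (SE 0.20, adjusted p = 4.03e-08) and relative to normal liver by 2.41 (SE 0.20, adjusted p = 1.17e-08). Sham and normal liver differed by 0.11, with a 95% interval of -0.31 to 0.52. Mean signals ran PH, SPH, VPH, TDPH, sham and normal in descending order, with overlap only between PH and SPH and between sham and normal.

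**Figure D1:**
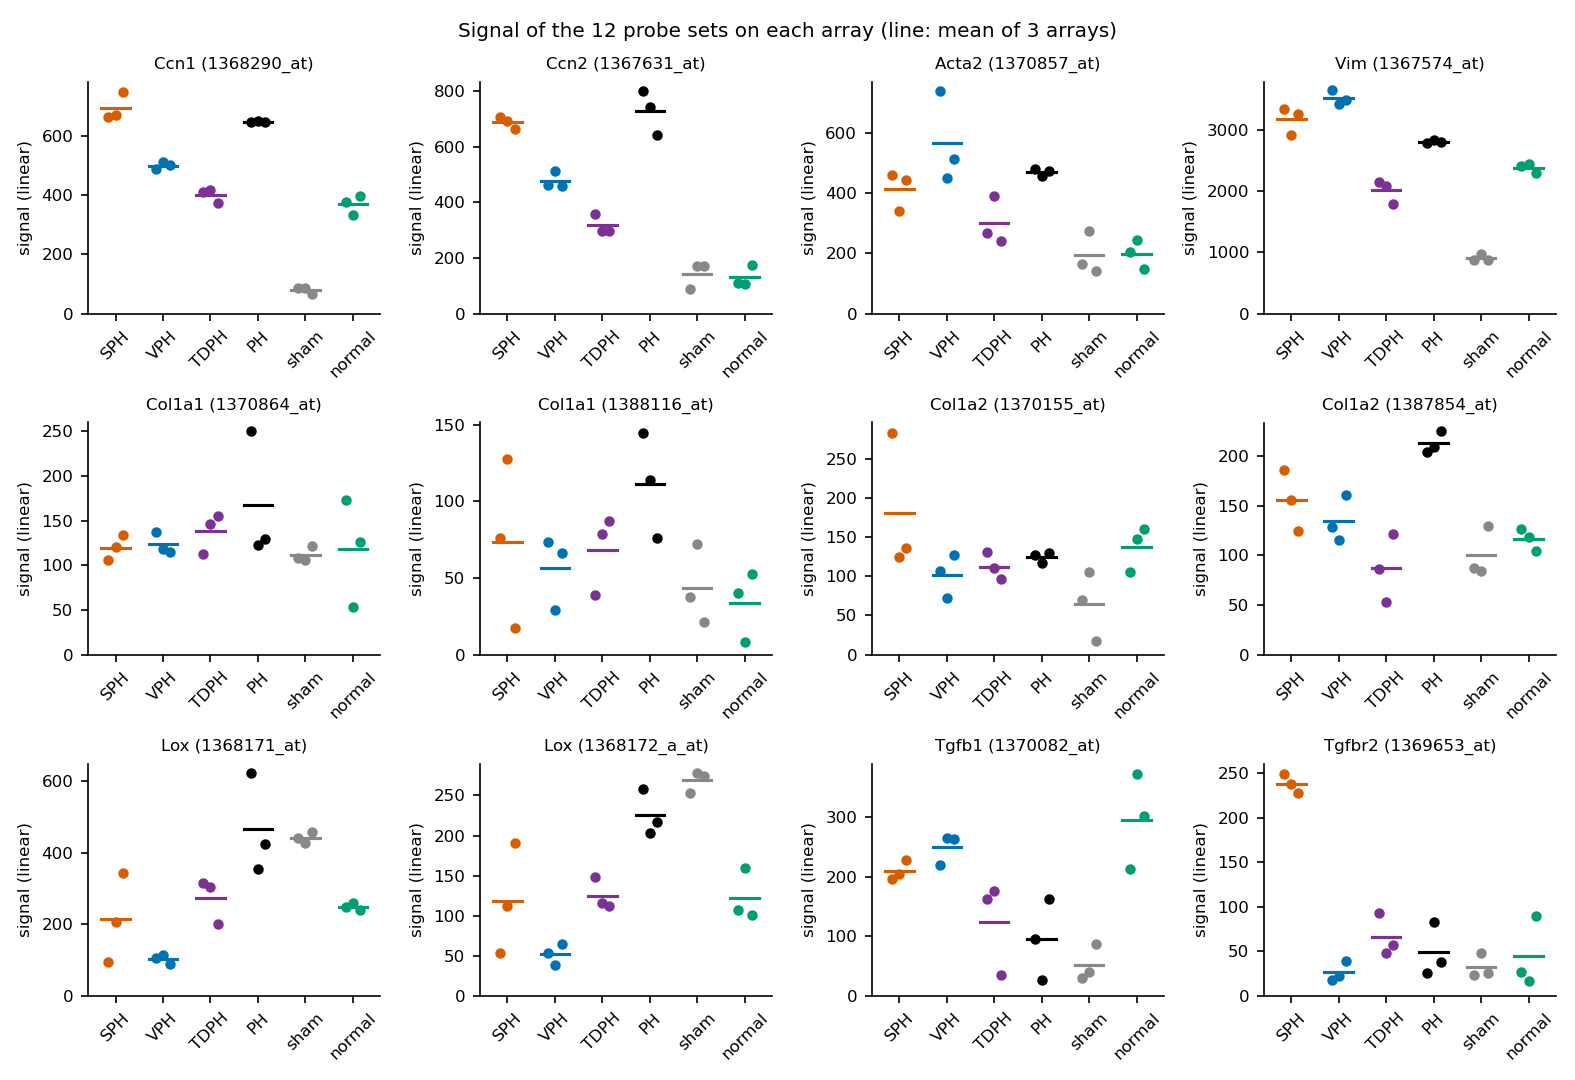
Signal (linear scale, vertical axis starting at 0) of each of the 12 probe sets on every array, by group. Points are arrays and lines are means of 3 arrays. Ccn1 and Vim were lowest on the sham arrays, Ccn2 was low on sham and normal arrays, Tgfbr2 was high on the SPH arrays alone, and both Lox probe sets were lowest on VPH arrays by group mean.

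The promoters of 4 genes that rose between PH and sham are shown because Ccn1, Ccn2 and Acta2 hold the letters GGAATG, the core motif of TEAD factors, and Vim does not. Each line gives the 250 bases before the transcription start from RefSeq's GRCr8 annotation, 5′ to 3′ on the gene's strand, with the motif in capitals where it occurs on either strand (CATTCC on the other). The regions are chr2:237225690-237225939 (minus strand) for Ccn1, chr1:22624615-22624864 (minus strand) for Ccn2, chr1:241172504-241172753 (minus strand) for Acta2 and chr17:81577011-81577260 (plus strand) for Vim.
Ccn1: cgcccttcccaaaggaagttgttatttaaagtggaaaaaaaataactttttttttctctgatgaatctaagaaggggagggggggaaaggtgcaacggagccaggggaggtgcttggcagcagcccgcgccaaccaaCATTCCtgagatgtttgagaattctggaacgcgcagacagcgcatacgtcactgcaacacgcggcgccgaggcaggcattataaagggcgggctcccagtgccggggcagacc
Ccn2: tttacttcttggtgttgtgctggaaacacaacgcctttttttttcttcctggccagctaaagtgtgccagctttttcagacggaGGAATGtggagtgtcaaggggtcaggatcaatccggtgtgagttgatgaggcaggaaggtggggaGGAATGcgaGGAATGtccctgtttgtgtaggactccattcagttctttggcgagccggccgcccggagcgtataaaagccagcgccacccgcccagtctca
Acta2: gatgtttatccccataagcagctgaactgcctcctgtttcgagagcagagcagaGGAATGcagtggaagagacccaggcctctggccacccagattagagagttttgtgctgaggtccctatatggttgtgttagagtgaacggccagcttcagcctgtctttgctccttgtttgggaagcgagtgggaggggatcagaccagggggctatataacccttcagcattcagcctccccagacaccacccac
Vim: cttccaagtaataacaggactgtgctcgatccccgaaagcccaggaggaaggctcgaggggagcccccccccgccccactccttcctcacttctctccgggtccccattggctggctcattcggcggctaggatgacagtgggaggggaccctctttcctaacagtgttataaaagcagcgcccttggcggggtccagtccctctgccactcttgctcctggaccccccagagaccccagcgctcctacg

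Motif matches were counted on both strands over the window from 250 bases before to 50 bases after the start, for the 7 of 9 members found in the RefSeq promoter table used here. Ccn2 holds GGAATG 3 times, with first bases at -166, -101 and -92 relative to the start, Ccn1 once at -113 and Acta2 once at -196. Of 33469 rat promoters of the same length, 14.2% hold the motif at least once and 0.0956% at least 3 times. The AP-1 motif TGANTCA (7.33% of promoters) had no match in any of the 7. Nor did the CArG box bound by SRF (1.64% of promoters) in its strict form CCWWWWWWGG, where W is A or T. Runs with a single other letter, such as ccctatatgg and ccttgtttgg in the Acta2 promoter, were not counted as matches. The cAMP response motif TGACG (21.2%) matched in Ccn1 and Tgfb1, and the SMAD motif, searched as CAGACA (21.1%), in Ccn1 and Acta2. Runs that share only CAGAC, such as cagacg in the Ccn2 promoter, were not counted. No match overlapped with the GGAATG matches. A match is a run of letters and says nothing of binding in these livers.

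Acta2 and Vim, the cytoskeletal members, both rose in PH relative to sham. Acta2 signal was 461, 342 and 444 in SPH, 742, 449.8 and 515 in VPH, 268, 391 and 240.0 in TDPH and 481, 459 and 475 in PH, against 164, 274 and 143 in sham and 205, 246 and 147 in normal liver. All arrays of SPH, VPH and PH exceeded all sham and normal arrays, while the TDPH arrays overlapped with both. The rise of Acta2 in PH was 1.29 (SE 0.24, adjusted p = 4.43e-04) relative to sham and 1.22 (SE 0.24, adjusted p = 4.31e-04) relative to normal liver. Sham and normal liver differed by -0.063, with a 95% interval of -0.56 to 0.43.

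Vim, like Ccn1, was lowest after the sham operation. Its arrays read 3350.5, 2927 and 3262 in SPH, 3659.6, 3436 and 3498 in VPH, 2159.6, 2093 and 1802 in TDPH and 2793, 2844 and 2811 in PH. They read 877, 979 and 874 in sham and 2412, 2451 and 2305 in normal liver, and no neighbouring groups overlapped in the order VPH, SPH, PH, normal, TDPH and sham. In PH Vim rose by 1.62 (SE 0.07, adjusted p = 1.14e-12) relative to sham, and in sham it fell with a difference of -1.38 (SE 0.07, adjusted p = 1.59e-11) relative to normal liver. PH and normal liver differed by 0.24 (SE 0.07, adjusted p = 0.0128), well under 2-fold.

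Leukocytes also express vimentin, and neutrophil markers were higher in PH than in sham. Their median difference was 2.64 in PH relative to sham. It was only -0.18 in sham relative to normal liver, where Vim fell. The summed signal of 5 neutrophil markers ran 20102 to 41973 in SPH, 14836 to 15271 in VPH, 5023 to 5983 in TDPH, 11959.9 to 12598 in PH, 1862 to 2066 in sham and 2440.2 to 2526 in normal liver, and Camp lay under the filter. Of these 5, 4 rose in PH relative to sham, where 2.19% of all genes tested rose, and 1, Fcnb, named after its values were seen, fell in sham relative to normal liver, where 2.28% of all genes fell. Endothelial marker sums, over 8 genes, ran 6849 to 7146 in PH, 4668 to 5176 in sham and 6974 to 7132 in normal liver, and none of the 8 passed the test in either comparison. The part of these cells in the Vim differences was not tested. Of 17 stellate cell and fibroblast markers that passed the filter (Ngfr, Lhx2 and Mfap4 did not), none rose or fell in PH relative to sham. Their median difference was 0.062. Their summed signal was 23841 to 24711 in PH, 22629.9 to 24366 in sham and 20404 to 21410.1 in normal liver.

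The type I collagen chains were dim, and their probe sets did not behave alike. For Col1a2, probe set 1387854_at read 205, 209.5 and 225 in PH, 87.7, 84.1 and 129 in sham and 127, 119 and 104.8 in normal liver, and it rose in PH relative to sham by 1.02 (SE 0.26, adjusted p = 0.00744). That call sits at the 2-fold threshold. The difference was 0.82 with a pseudocount of 50, 0.99 without PH replicate 3, 0.95 without sham replicate 1 and 0.92 without sham replicate 2. Probe set 1370155_at of the same gene read 127, 117 and 129.8 in PH, 70.3, 105.3 and 17.7 in sham and 105.6, 147 and 160.2 in normal liver. Its sham arrays were widely spread, and the difference between PH and sham, 1.05 (SE 0.40, adjusted p = 0.0668), did not pass. It was 1.22 with quantile normalization, 1.20 with centred arrays and 1.46 without sham replicate 2, and passed in each.

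Col1a1 did not pass between PH and sham with either probe set. Probe set 1388116_at read 145, 114 and 76.05 in PH, 37.8, 72.5 and 20.999 in sham and 39.9, 8.24 and 52.7 in normal liver, and its difference between PH and sham was 1.22 (SE 0.59, adjusted p = 0.156). Relative to normal liver it rose in PH by 1.56 (SE 0.59, adjusted p = 0.0499), a call at the edge of the threshold that only 3 of 11 alternative settings kept. This probe set exceeded the 40th percentile on 2 PH arrays and 1 SPH array and on none of the others, so it passed the filter through those arrays alone. Probe set 1370864_at read 250.3, 123 and 129 in PH, 108.3, 106.2 and 121 in sham and 174, 53.6 and 126 in normal liver. Its PH arrays lay above its sham arrays without overlap, the lowest of them narrowly, and the difference of 0.46 (SE 0.32, adjusted p = 0.34) did not pass. In PH 1 array lay far above the other 2, and in normal liver 1 lay far below.

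Lox, which crosslinks collagen and elastin, had 2 probe sets that ran in parallel. Probe set 1368171_at read 93.2, 206 and 342 in SPH, 104.7, 115 and 88.7 in VPH, 314, 303 and 199.8 in TDPH, 622, 355 and 423 in PH, 440.4, 426 and 457 in sham and 248.7, 259 and 239 in normal liver. Probe set 1368172_a_at read 52.6, 111.8 and 191 in SPH, 53.4, 37.9 and 63.9 in VPH, 148, 115 and 111.9 in TDPH, 258, 204 and 217 in PH, 254, 278 and 275 in sham and 106.3, 159.5 and 100.4 in normal liver. PH and sham overlapped on both, and differed by 0.042 and -0.24, with 95% intervals of -0.58 to 0.67 and -0.90 to 0.42. All sham arrays exceeded all normal arrays on both. The second probe set rose in sham relative to normal liver by 1.09 (SE 0.31, adjusted p = 0.0196), while the first differed by 0.80 (SE 0.30, adjusted p = 0.0797) and was not called. The rise on the second was kept in 9 of 14 alternative settings, and was lost without sham replicate 2 or 3 and without normal replicate 1 or 3, at 0.98 to 1.08, and with a pseudocount of 50, at 0.91.

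Neither TGF-beta member passed the test between PH and sham. Tgfb1 was 196, 204 and 229 in SPH, 219.8, 265 and 263 in VPH, 162, 176 and 34.8 in TDPH, 95.6, 25.5 and 163 in PH, 29.4, 39.2 and 87.4 in sham and 213, 373 and 302 in normal liver. The TDPH and PH arrays were widely spread, and normal liver was above both PH and sham on every array. Tgfb1 fell in sham relative to normal liver with a difference of -2.34 (SE 0.50, adjusted p = 0.0022) and in PH relative to normal liver with one of -1.75 (SE 0.50, adjusted p = 0.0107). The difference between PH and normal liver was -1.13 and not called without PH replicate 2 (adjusted p = 0.0851 from the same limma fit). PH relative to sham differed by 0.58 (SE 0.50, adjusted p = 0.459). Its mean signals ran normal, VPH, SPH, TDPH, PH and sham in descending order, with a gap between neighbours only between SPH and TDPH. As for Ccn1, no sham array exceeded its 40th percentile.

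Tgfbr2 was dim in 5 groups and high in 1. Its arrays read 249.2, 238 and 227 in SPH, 17.8, 21.8 and 38.6 in VPH, 93.1, 48.2 and 56.9 in TDPH and 25.3, 82.5 and 37.5 in PH, against 22.7, 47.7 and 25.8 in sham and 26.99, 15.9 and 88.99 in normal liver. All 3 SPH arrays thus lay above all 15 others, which overlapped from each group to the next. Apart from the 3 SPH arrays, only 1 TDPH array and 1 PH array exceeded their 40th percentile, so Tgfbr2 passed the filter only through SPH. Between PH and sham it differed by 0.39 (SE 0.50, adjusted p = 0.642).

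Sham operation was compared with normal liver, groups that differ in operation and in time. Across the members, Ccn1, Vim and Tgfb1 fell and 1 of 2 Lox probe sets rose, so that 3 of 12 probe sets fell and 1 rose, where 1.99% of all probe sets tested fell and 1.03% rose (441 and 228 of them, against 323 and 311 with each array centred on its median). The median difference of the 12 was -0.11, against -0.033 over all probe sets. The sham arrays had the highest 3′ to 5′ ratios, as given above. Both red cell markers that passed the filter, out of 4 listed, rose in sham relative to normal liver, where 0.903% of all genes tested rose. Hbb, a beta globin, rose by 1.73 (SE 0.15, adjusted p = 7.15e-08) and Alas2, a heme synthesis enzyme, by 1.26 (SE 0.23, adjusted p = 4.68e-04), and their sums were 14496 to 15018 in sham against 4267 to 4792 in normal liver. The part of red cells in the members' differences was not tested. Col1a2 probe set 1370155_at missed the threshold at -1.16 (SE 0.40, adjusted p = 0.052). In PH relative to normal liver, 3 of 12 rose (Ccn2, Acta2 and Col1a1 probe set 1388116_at) and 1 fell (Tgfb1). Over all probe sets 2.51% rose and 4.8% fell. That Col1a1 probe set passed the filter only through PH and SPH arrays, so counting it adds no support. Only 3 of 11 alternative settings kept its call. These comparisons share the sham or the normal arrays with each other and are not independent.

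**Figure D2:**
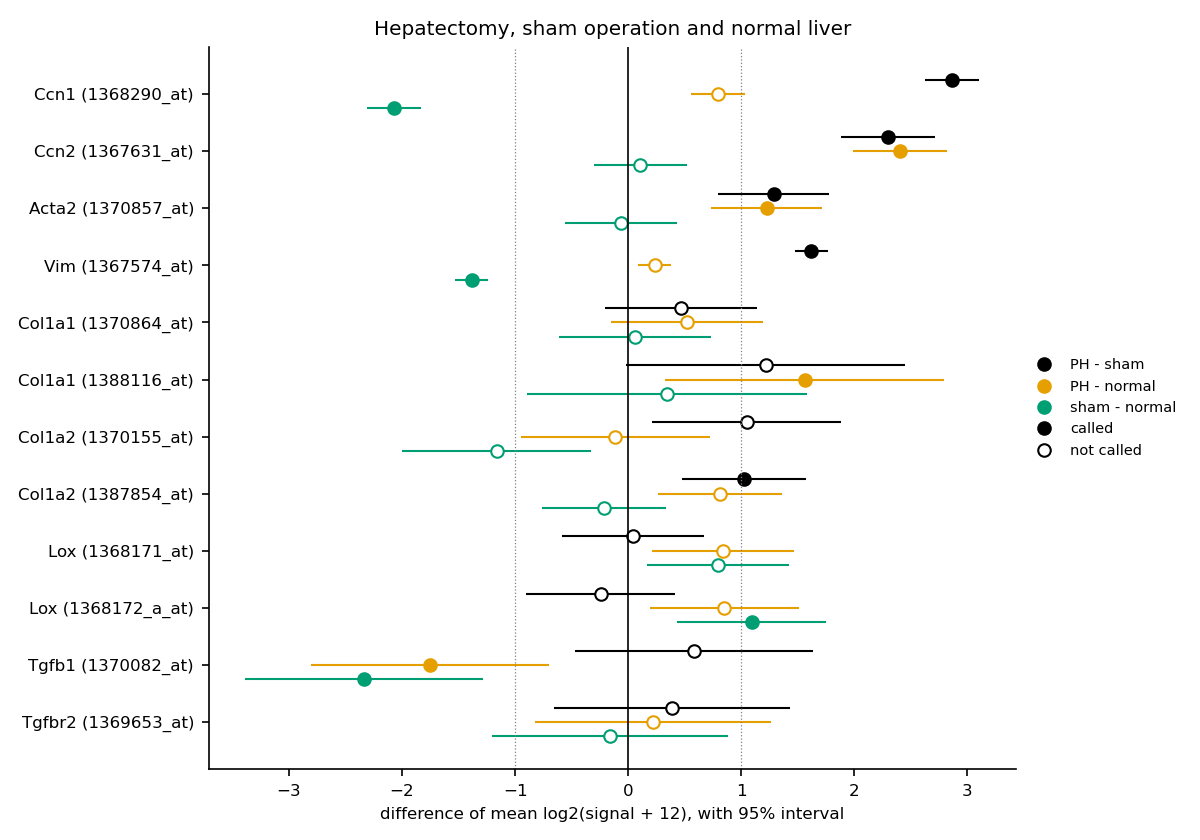
Differences of mean log2(signal + 12) with 95% intervals (horizontal axis) for the 12 probe sets in PH minus sham, PH minus normal and sham minus normal. Filled points passed the adjusted p and 2-fold thresholds, and dotted lines mark 2-fold. Ccn1 was 2.87 in PH minus sham and -2.07 in sham minus normal, while Ccn2 was 2.30 and 0.11.

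Lymphocyte markers differed between groups in which Tgfb1 differed. The summed signal of 10 of 12 listed markers was 9334 to 23424 in SPH, 24187 to 24571 in VPH, 10560.3 to 11248 in TDPH, 9508 to 9614 in PH, 3888 to 4389 in sham and 23449.6 to 24158 in normal liver. Cd74, which antigen-presenting cells such as B cells and macrophages express, made up 65.4% to 87.1% of that sum across the 18 arrays. Without it, a sum chosen after the values were seen, the other 9 gave 2785 to 3312 in SPH, 3123 to 3314 in VPH, 2219 to 2324 in TDPH, 1706 to 2085 in PH, 1217 to 1518 in sham and 3222 to 3467 in normal liver. Of that remainder, Ptprc alone gave 1416.5 to 1541 in SPH, 1416 to 1513 in VPH and 968 to 1205 in TDPH. It gave 739 to 882 in PH, 501 to 556 in sham and 1525 to 1677 in normal liver. Of the 10 markers, 6 fell in sham relative to normal liver, where 2.28% of all genes tested fell. In PH relative to sham 3 rose, where 2.19% of all rose, and in VPH relative to PH 2 rose, where 1.25% did. Of 10 macrophage and Kupffer markers, 2 fell in sham relative to normal liver. Sums of 5 pancreatic enzyme genes were also higher in normal liver (2909 to 3635) than in any other group, the next being TDPH (1647 to 1905). Most of that sum in normal liver was Cpa1, at a mean of 2262 against 193 in sham, and only Cpa1 fell in sham relative to normal liver. In PH relative to normal liver 3 of the 5 differences were above 0, so the list was not uniformly higher in normal liver. The part of any of these cells in the Tgfb1 differences was not tested.

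**Figure D3:**
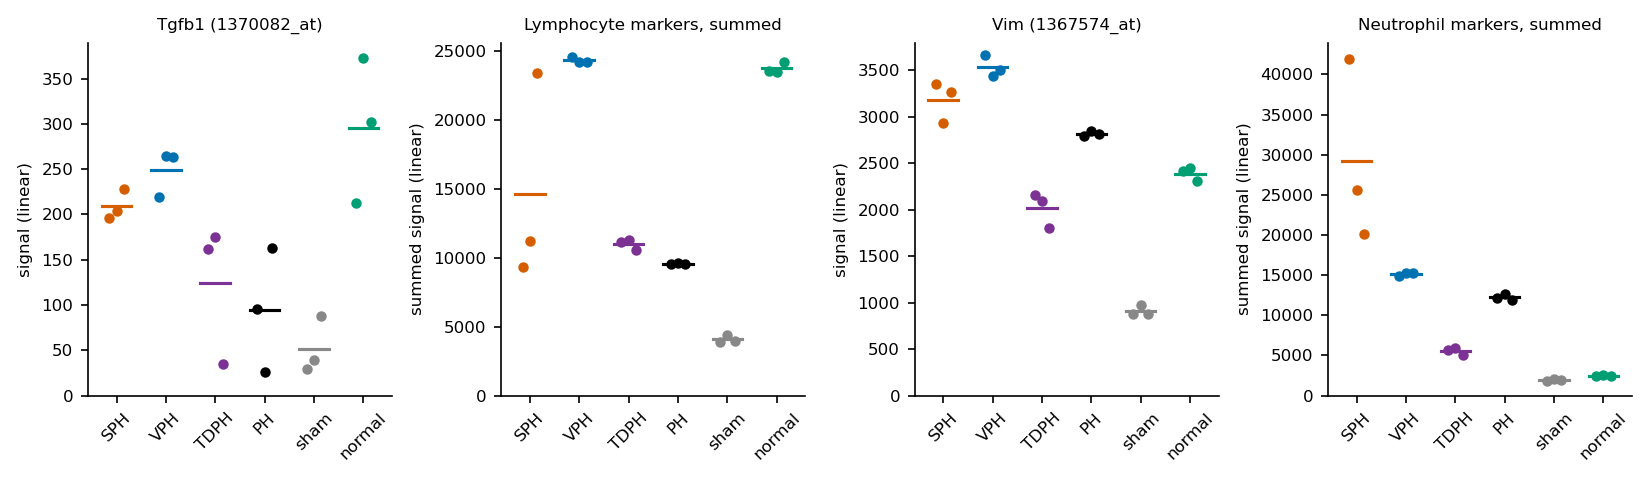
Signal (linear) of Tgfb1 and Vim on every array beside the summed signal of 10 lymphocyte and 5 neutrophil markers, by group. Points are arrays and lines are means of 3 arrays. Sham arrays were lowest in all 4 panels by group mean, and the lymphocyte sum, most of which is Cd74, was 9334, 11190.3 and 23424 on the SPH arrays, whose Tgfb1 signals were 196, 204 and 229, against 24187 to 24571 in VPH and 23449.6 to 24158 in normal liver.

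SPH, VPH and TDPH were each compared with PH for the part of the hepatic nerves in the response. Each used the same 3 PH arrays, so values below are given side by side and agreement between them is not independent. In SPH relative to PH, Tgfbr2 rose and both Lox probe sets fell, that is 1 of 12 rose and 2 fell, where 0.94% of all probe sets rose and 0.547% fell. Tgfbr2 passed the filter only through SPH, so the direction of its rise was fixed by the filter. In VPH relative to PH, only the 2 Lox probe sets fell and none rose, where 0.701% of all fell and 1.09% rose. In TDPH relative to PH, Ccn2 and Col1a2 probe set 1387854_at fell and none rose, where 0.362% of all fell and 1.29% rose. Median differences of the 12 were -0.13 in SPH, -0.48 in VPH and -0.65 in TDPH, against medians over all probe sets of 0.028 in SPH, 0.047 in VPH and 0.11 in TDPH. With centred arrays the split over all probe sets was 152 higher and 153 lower in SPH, 193 and 219 in VPH and 149 and 146 in TDPH, against 208 and 121, 242 and 155, and 285 and 80 as deposited.

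After sympathectomy alone neither Ccn1 nor Ccn2 passed the test against PH, and after total denervation both were lower than in PH on every array. SPH relative to PH differed by 0.10 for Ccn1 (95% interval -0.14 to 0.34) and by -0.075 for Ccn2 (-0.49 to 0.34). In VPH the differences from PH were -0.37 (SE 0.11, adjusted p = 0.0419) for Ccn1 and -0.59 (SE 0.20, adjusted p = 0.0589) for Ccn2, both under 2-fold. In TDPH Ccn2 fell with a difference of -1.17 (SE 0.20, adjusted p = 3.08e-04), with all TDPH arrays below all PH arrays, and Ccn1 differed by -0.68 (SE 0.11, adjusted p = 2.83e-04), under 2-fold but also without overlap. TDPH set directly against SPH gave a fall of Ccn2, at -1.09 (SE 0.20, adjusted p = 6.87e-04) and a difference of -0.78 (SE 0.11, adjusted p = 9.21e-05) for Ccn1. Set against VPH, the TDPH differences were -0.58 (SE 0.20, adjusted p = 0.0438) for Ccn2 and -0.31 (SE 0.11, adjusted p = 0.058) for Ccn1. Even so, Ccn1 and Ccn2 were above sham in TDPH, by 2.19 (SE 0.11, adjusted p = 2.16e-11) and 1.13 (SE 0.20, adjusted p = 3.00e-04).

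The Acta2 and Vim differences after denervation stayed under 2-fold. Acta2 differed from PH by -0.19 in SPH, 0.23 in VPH and -0.66 in TDPH, with 95% intervals of -0.68 to 0.31, -0.26 to 0.73 and -1.16 to -0.17. Vim was tightly measured, at 0.17 (SE 0.07, adjusted p = 0.113) in SPH, 0.32 (SE 0.07, adjusted p = 0.00365) in VPH and -0.48 (SE 0.07, adjusted p = 6.23e-05) in TDPH. It was thus slightly higher than PH on all VPH arrays and lower on all TDPH arrays. Neutrophil marker sums were 20102 to 41973 in SPH, 14836 to 15271 in VPH and 5023 to 5983 in TDPH, against 11959.9 to 12598 in PH, so they were highest in SPH, whereas all Vim signals in VPH exceeded those in SPH. Of the 5 neutrophil markers, 3 rose in SPH relative to PH, where 0.859% of all genes tested rose. None was called in VPH relative to PH, and 2 fell in TDPH relative to PH, where 0.408% of all fell. Sums of 10 macrophage and Kupffer markers were 47533 to 51136 in SPH, 54355 to 57327 in VPH and 39069 to 40976 in TDPH, against 38935 to 39662 in PH. The part of these cells in the Vim differences after denervation was not tested either.

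Lox was lower than PH in each denervated group, and most in VPH. In VPH it fell with a difference of -2.03 (SE 0.30, adjusted p = 1.08e-04) on probe set 1368171_at and -1.92 (SE 0.31, adjusted p = 3.24e-04) on 1368172_a_at, and the mean signal was 0.220 and 0.229 times that of PH. All 14 alternative settings kept both calls. In SPH it fell with a difference of -1.21 (SE 0.30, adjusted p = 0.00864) and -1.01 (SE 0.31, adjusted p = 0.0358), but the SPH arrays ranged widely, and without SPH replicate 1 the differences were -0.75 and -0.58 and not called. Without PH replicate 1 they were -0.99 and -0.92 and likewise not called. With only SPH and PH fitted neither was called (adjusted p = 0.0835 and 0.137 from limma). The second was also lost with a pseudocount of 50 (-0.79), without the filter on low signals (adjusted p = 0.0584 from limma), without the variance trend (0.0523), without SPH replicate 2 and without PH replicate 2 or 3. The calls were kept in 11 of 14 settings on the first probe set and 5 of 14 on the second. In TDPH the differences were -0.74 (SE 0.30, adjusted p = 0.1) and -0.80 (SE 0.31, adjusted p = 0.0897), which did not pass, although TDPH and PH arrays did not overlap on either probe set. TDPH set directly against VPH gave rises of 1.29 (SE 0.30, adjusted p = 0.00376) and 1.12 (SE 0.31, adjusted p = 0.0149). The second rise was 0.999 without TDPH replicate 1, 0.95 without VPH replicate 2 and 0.78 with a pseudocount of 50, and was called in none of these.

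Col1a2 probe set 1387854_at read 186, 156 and 125 in SPH, 128, 115 and 161 in VPH and 86.8, 52.9 and 122 in TDPH, against 205, 209.5 and 225 in PH. All TDPH arrays lay below all PH arrays, and it fell with a difference of -1.24 (SE 0.26, adjusted p = 0.00221) in TDPH relative to PH. With a pseudocount of 50, or without TDPH replicate 2, this difference was -0.97 and not called. Probe set 1370155_at of the same gene differed by -0.14 (SE 0.40, adjusted p = 0.863) and its arrays, at 283, 125 and 136 in SPH, 107.4, 72.3 and 127 in VPH and 131, 110.4 and 95.96 in TDPH, overlapped with those of PH. For Col1a1, probe set 1370864_at read 105.6, 120.4 and 134 in SPH, 138, 119 and 114 in VPH and 112.4, 147 and 156 in TDPH, and probe set 1388116_at read 76.1, 128 and 17.2 in SPH, 73.6, 28.8 and 66.4 in VPH and 38.6, 78.95 and 86.99 in TDPH. None of the 6 Col1a1 differences from PH passed the test, and their 95% intervals reached as low as -2.12 (VPH, 1388116_at).

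**Figure D4:**
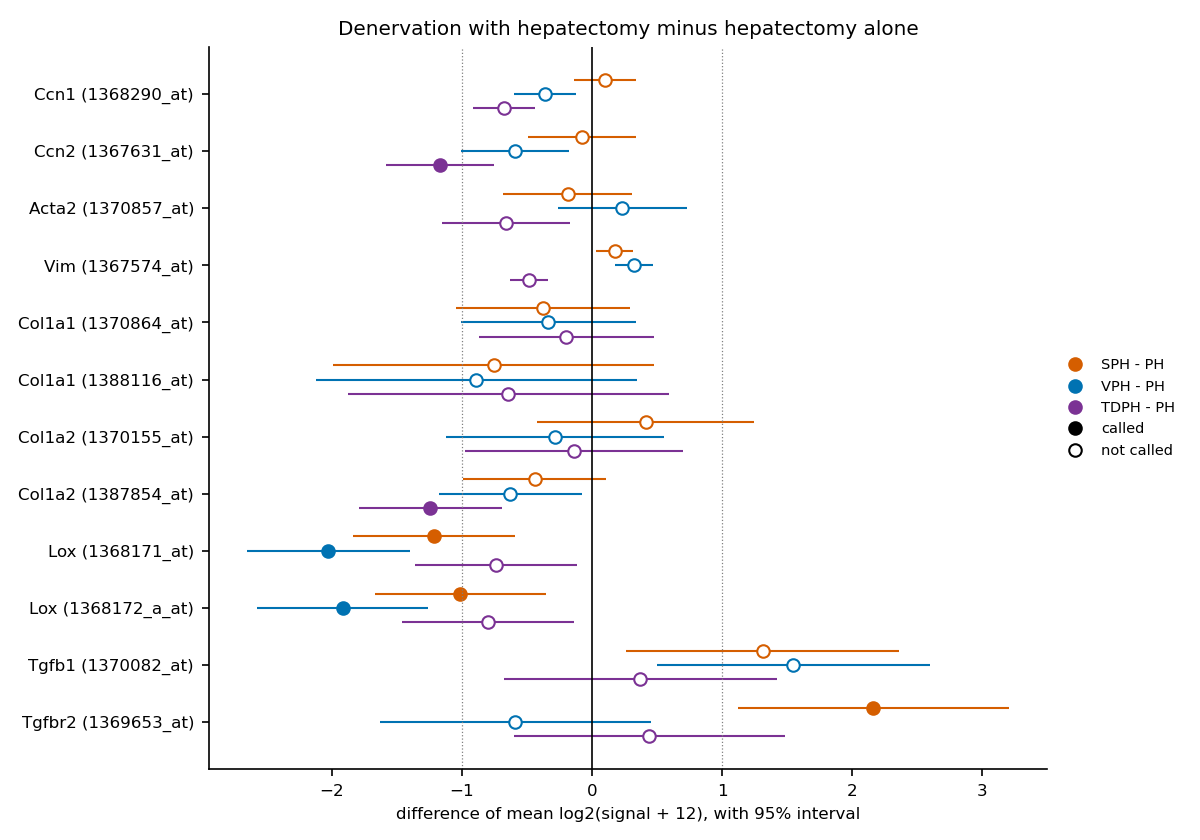
Differences of mean log2(signal + 12) from PH with 95% intervals (horizontal axis) for the 12 probe sets in SPH, VPH and TDPH. Filled points passed the adjusted p and 2-fold thresholds, and dotted lines mark 2-fold. Tgfbr2 was at 2.16 in SPH, both Lox probe sets were lowest in VPH (-2.03 and -1.92), and Ccn2 was lowest in TDPH (-1.17).

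Tgfbr2 rose in SPH relative to PH by 2.16 (SE 0.50, adjusted p = 0.00539). Having passed the filter only through SPH, it had to be higher there, and 2 of 3 PH arrays lay under their 40th percentile, so the size of the difference rests on low signals and no fold is given. It also rose in SPH relative to VPH, by 2.75 (SE 0.50, adjusted p = 5.04e-04). In TDPH, taken here as sympathectomy and vagotomy together, Tgfbr2 was not shown to differ from PH (0.44, 95% interval -0.60 to 1.48, adjusted p = 0.624), and it fell relative to SPH with a difference of -1.72 (SE 0.50, adjusted p = 0.0244). That fall lost its call in each of 5 settings that left out an array, with differences of -1.56 to -1.75. Tgfb1 was above every PH array on every SPH and VPH array, yet its differences of 1.31 (SE 0.50, adjusted p = 0.0924) in SPH and 1.55 (SE 0.50, adjusted p = 0.0504) in VPH did not pass. Without PH replicate 3 they were 1.80 and 2.03 and were called. The VPH difference was also called with a pseudocount of 50 (1.17, adjusted p = 0.0323 from limma) and with only VPH and PH fitted (adjusted p = 0.0486). A further VPH array, present in a second deposited table and absent among the 18 used here, read 123.5 for Tgfb1, under the other VPH arrays, and with that table the VPH difference was 1.21 (adjusted p = 0.162 from limma).

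Set against the sham operation, the hepatectomized groups shared the rise of Ccn1, Ccn2 and Vim. In SPH 7 of 12 probe sets rose and 2 fell, where 3.5% of all rose and 3.51% fell. In VPH 5 of 12 rose and 2 fell, where 3.28% of all rose and 2.51% fell. In TDPH 3 of 12 rose and 1 fell, where 2.47% of all rose and 0.85% fell. Acta2 rose by 1.10 (SE 0.24, adjusted p = 0.00128) in SPH and 1.52 (SE 0.24, adjusted p = 6.08e-05) in VPH, and differed by 0.62 (SE 0.24, adjusted p = 0.0714) in TDPH. Tgfb1 rose by 1.89 (SE 0.50, adjusted p = 0.00682) in SPH and 2.13 (SE 0.50, adjusted p = 0.00329) in VPH. Tgfbr2 differed by 2.55 (SE 0.50, adjusted p = 5.56e-04) in SPH and is 1 of the 7 counted there. Having passed the filter only through SPH, it had to be higher in that group. Both Lox probe sets fell in SPH (-1.17 and -1.26) and in VPH (-1.99 and -2.16), and 1 of them in TDPH (-1.04, adjusted p = 0.0228). Among these, Acta2 in SPH was 0.92 without sham replicate 3, Ccn2 in TDPH was 0.85 without sham replicate 1 and Lox in SPH was -0.71 and -0.82 without SPH replicate 1, none of them called. With a pseudocount of 50, Acta2 in SPH was 0.96, Ccn2 in TDPH 0.95 and Lox in TDPH -0.87, likewise not called. The Lox call in TDPH was also lost without sham replicate 2 or 3 and without TDPH replicate 2 or 3. Col1a2 probe set 1370155_at rose in SPH by 1.46 (SE 0.40, adjusted p = 0.00854), a call lost without SPH replicate 1 or sham replicate 3 and with only SPH and sham fitted (adjusted p = 0.077 from limma). All of these use the same sham arrays, in which Ccn1 and Vim were lower than in normal liver.

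Direct comparisons between denervated groups gave few calls. In SPH relative to VPH 1 of 12 probe sets rose and none fell, where 1.48% of all rose and 1.3% fell. In TDPH relative to SPH 2 fell and none rose, where 0.542% of all fell and 1.12% rose. In TDPH relative to VPH 2 rose and none fell, where 1.94% of all rose and 0.877% fell. The probe sets were those named above for Tgfbr2, Ccn2 and Lox. Tgfbr2, which passed the filter only through SPH, is the 1 in SPH relative to VPH. It is also among the 2 in TDPH relative to SPH.

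Whether the effects of the separate operations add up was tested with the contrast TDPH - SPH - VPH + PH, which is the effect of sympathectomy after vagotomy minus its effect with the vagus intact. It treats TDPH as vagotomy and sympathectomy together. Of the 12 probe sets, 2 were called higher, where 1.55% of all were, and 1 lower, where 1.87% of all were. The higher ones were the Lox probe sets, at 2.51 (SE 0.42, adjusted p = 4.47e-04) and 2.13 (SE 0.44, adjusted p = 0.00298). The lower one was Tgfb1, at -2.49 (SE 0.71, adjusted p = 0.0253), which was not called without PH replicate 2 (-1.87), TDPH replicate 3 (-1.84), or VPH replicate 2 or 3 (-2.45 each), nor without the variance trend or with the second table. Vim, at -0.98 (SE 0.10, adjusted p = 1.25e-06), was just under 2-fold. Ccn1 and Ccn2 did not pass, at -0.41 (SE 0.16, adjusted p = 0.11) and -0.50 (SE 0.28, adjusted p = 0.289).

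Beyond the members, 27 of 30 listed genes of the TGF-beta pathway were tested, each by its brightest probe set. In PH relative to sham 3 rose and 1 fell, where 2.19% of all genes tested rose and 1.91% fell, with a median of -0.18 against -0.085 over all genes. Tgif1, a corepressor that binds SMADs, read 1867, 2036 and 1946 in PH against 386, 529 and 428 in sham and rose by 2.11 (SE 0.11, adjusted p = 3.59e-11). Called genes of this list are named only where the arrays of the groups compared did not overlap, so a lack of overlap adds no support. Id1, an inhibitor of basic helix-loop-helix factors, rose by 1.49 (SE 0.24, adjusted p = 1.07e-04). Smad7, the inhibitory SMAD, fell with a difference of -1.11 (SE 0.19, adjusted p = 1.78e-04), though its other probe sets differed by only -0.20 and -0.24.

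In sham relative to normal liver 3 genes of that list fell and 1 rose, where 2.28% of all genes fell and 0.903% rose. Id2 read 766, 774 and 899.7 in sham against 2624, 2751 and 2556 in normal liver and fell with a difference of -1.69 (SE 0.078, adjusted p = 4.14e-12). Id3 and Id1 fell with differences of -1.38 and -1.05, so 3 members of this family, which BMP and TGF-beta signals control in many cells, were lower together. Tgfb3, another TGF-beta ligand, rose by 1.14 (SE 0.19, adjusted p = 2.38e-04). After denervation few members moved: in SPH relative to PH Fst, which encodes the activin antagonist follistatin, rose by 2.12 (SE 0.54, adjusted p = 0.0103), where 0.859% of all genes rose and 0.373% fell. In VPH relative to PH Tgif1 fell with a difference of -1.30 (SE 0.11, adjusted p = 2.50e-07), where 0.608% of all genes fell and 1.25% rose. Tgif1 read 787, 699.9 and 883 in VPH against 1867, 2036 and 1946 in PH. In TDPH none of the 27 was called, where 1.01% of all genes rose and 0.408% fell.

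Of 17 tested genes of the YAP and SRF targets and cytoskeleton list, 3 rose in PH relative to sham and none fell, where 2.19% of all genes rose and 1.91% fell, with a median of 0.43 against -0.085 over all genes. Tpm4, a tropomyosin, read 4299, 4684 and 4422 in PH against 1347, 1332 and 1365 in sham and rose by 1.72 (SE 0.076, adjusted p = 1.66e-12). Zyx, a focal adhesion protein, rose by 1.38 (SE 0.092, adjusted p = 8.20e-10), and the transcription factor Srf by 1.25 (SE 0.11, adjusted p = 3.51e-08). The lack of overlap between PH and sham arrays on all of them follows from the rule for naming genes and adds no support. Amotl2, which encodes a protein that binds YAP, rose in sham relative to normal liver by 1.12 (SE 0.087, adjusted p = 1.00e-08). It was the only one called in that comparison, where 0.903% of all genes rose. None of the 17 was called in SPH, VPH or TDPH relative to PH, where 1.23%, 1.86% and 1.41% of all genes were. The summed signal of the 17 ran 84405 to 85459 in SPH, 94820 to 99705 in VPH and 64242 to 66200 in TDPH. In PH it ran 88229 to 90679. Ankrd1, another known YAP target, lay under the filter.

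Of 25 tested genes of matrix and crosslinking, 3 rose in PH relative to sham and none fell, where 2.19% of all genes rose and 1.91% fell, with a median of 0.46 against -0.085 over all genes. Timp3 and Timp1, inhibitors of metalloproteinases, rose by 1.67 (SE 0.13, adjusted p = 4.96e-09) and 1.40 (SE 0.17, adjusted p = 3.73e-06). Dcn, the small proteoglycan decorin, rose by 1.49 (SE 0.50, adjusted p = 0.0359) and fell in sham relative to normal liver with a difference of -1.85 (SE 0.50, adjusted p = 0.0122), reading 51.3, 76.1 and 72.1 in PH, 33.6, 17.6 and 3.62 in sham and 63.5, 115 and 90.9 in normal liver. It was dim: 1 PH array, no sham array and 1 normal array exceeded the 40th percentile, so these differences are between low signals. In sham relative to normal liver 2.28% of all genes fell. Bgn, the related proteoglycan biglycan, fell in VPH relative to PH with a difference of -1.60 (SE 0.41, adjusted p = 0.0133), the only gene of the list called in any of SPH, VPH or TDPH relative to PH. Its VPH arrays ranged from 55.9 to 322, and 0.608% of all genes fell in VPH relative to PH. Of the 5 other matricellular genes that passed the filter, out of 12 listed, none was called in PH relative to sham, in sham relative to normal liver, or in SPH, VPH or TDPH relative to PH. Spp1, Tnc, Postn, Ccn4, Ccn5 and Ccn6 lay under the filter. Among 17 stellate cell markers, Reln, a glycoprotein that marks stellate cells in liver, fell in TDPH relative to PH. Its difference was -1.06 (SE 0.18, adjusted p = 3.34e-04), where 0.408% of all genes fell. The median of the 17 was -0.061 there, with 7 differences above 0. No other of them was called in SPH, VPH or TDPH relative to PH.

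**Figure D5:**
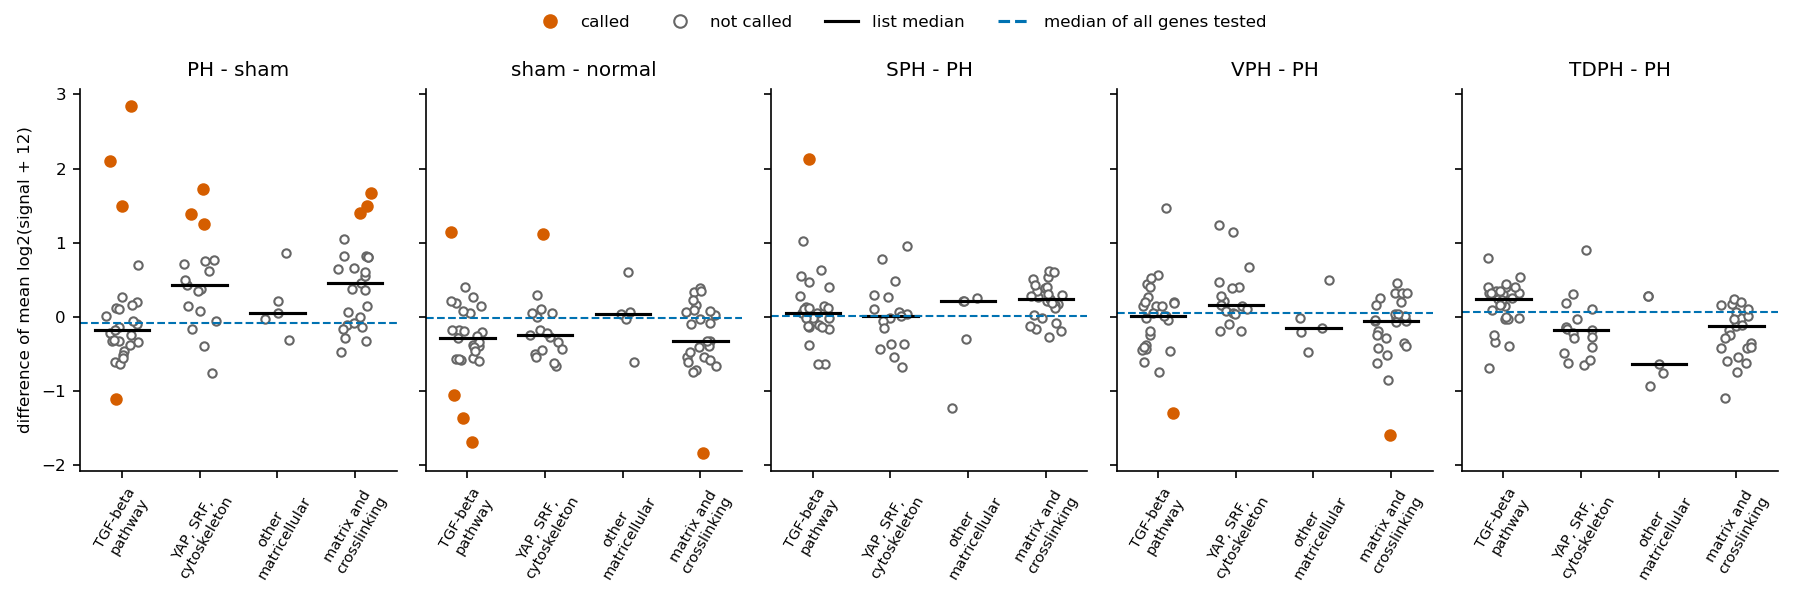
Difference of mean log2(signal + 12) (vertical axis) of each tested gene in 4 lists, in the 5 comparisons named above the panels. Each point is a gene, filled where called, with the list median as a black line and the median of all genes as a dashed line. In PH minus sham the medians of the YAP and SRF list (0.43) and of the matrix list (0.46) lay above that of the TGF-beta list (-0.18).

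Genes whose pattern over the 18 arrays was most like that of a member were ranked by Pearson's r among 6533 probe sets with an SD of at least 0.5 over arrays. These r values rest on differences between 6 groups of 3 arrays and are descriptions, with no test. For Ccn1 the nearest were Rnd3 (0.97), Fgl2 (0.95), Vim (0.94) and Bhlhe40 (0.93). For Vim they were Fcnb (0.98), Ezr (0.95), Plscr1 (0.95) and Ccn1 (0.94), the first of which stands on the neutrophil marker list. For Tgfb1 they were Eif4e3 (0.87), Il2rg (0.82), Ptprc (0.82) and Cd3e (0.82), of which Ptprc and Cd3e stand on the lymphocyte list. For Tgfbr2 they were Masp1 (0.85), Insr (0.81), Nedd9 (0.79) and LOC311134 (0.77), each with its highest group mean in SPH.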

How the data were processed

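The deposited signal intensity values, 1 per probe set and array on a linear scale, were used as deposited, and GCOS 2.0 is named for them in the submitters' notes on processing. A second deposited table holds the authors' signals and log2 ratios with ratio columns per the file headers. Its log2 values were not used for tests. In it, 17 of 18 signal columns match arrays of the first table to within 0.1, and the first VPH column matches none. Group means of log2(signal + 12) were fitted over 18 arrays (R 4.3.3, limma 3.58.1, functions lmFit and eBayes with trend, 12 residual and 7.14 prior degrees of freedom), two-sided, on probe sets above the 40th percentile on at least 3 arrays, with Benjamini-Hochberg adjustment over all 22125. The 57 control probe sets were left out. The procedure was tested on simulated data. Symbols came from the array annotation, updated through a rat gene table (2543 by synonym, 16 by accession).

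Members, gene lists and tests were chosen with earlier results of these data known. Named genes are every member probe set, per pathway list and comparison the 4 called genes with the largest difference and no overlap of arrays, and the 4 most alike genes for Ccn1, Vim, Tgfb1 and Tgfbr2. Lists are described without tests, and 1 gene counted in the TGF-beta list is not reported by name here. Alternatives were a pseudocount of 50, no filter, quantile normalization, centred arrays, no trend, a replicate block, only the groups compared, leaving out each array, and, added after seeing the data, the second table. The number of arrays limits the precision.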

Additional observations from a re-analysis of the deposited data

Results flagged for a closer look

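With TDPH taken as vagotomy and sympathectomy together, the contrast for a sympathectomy effect that differs with the state of the vagus was called on 3 probe sets. Its errors cover variation among arrays only. For Lox, the difference made by sympathectomy after vagotomy (TDPH minus VPH) exceeded that with the vagus intact (SPH minus PH) by 2.51 on probe set 1368171_at and by 2.13 on 1368172_a_at. On the first, TDPH minus VPH was 1.29 and SPH minus PH was -1.21, and all 20 alternative settings kept the call on both probe sets. For Tgfb1 the same quantity was -2.49, from -1.18 in TDPH minus VPH and 1.31 in SPH minus PH, and 14 of 20 settings kept it. No group was denervated without hepatectomy, so effects of the operations themselves and of the response to hepatectomy cannot be told apart.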

How the results depend on the processing

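Of the counts of called member probe sets, that in PH minus sham was 4 to 6 and that in sham minus normal 3 to 4 over all settings, against 5 and 4 in the reported analysis. In SPH minus PH the count of 3 was 1 when only these groups were fitted, and 1 to 3 when single arrays were left out (1 without SPH replicate 1 or PH replicate 1). In VPH minus PH the count of 2 was 3 with a pseudocount of 50, with only these groups and without PH replicate 3, and 2 in the other settings. In TDPH minus PH the count of 2 was 1 with a pseudocount of 50, and 1 to 2 when single arrays were left out (1 without TDPH replicate 2). The cause was not tested. With replicate number as a block the counts were 5, 4, 3, 2 and 2 in the 5 main comparisons, as without it, and the only call lost was Col1a1 1388116_at in PH minus normal (adjusted p = 0.0619). Same-numbered arrays did not deviate together (0 of 45 pairs correlated above 0.1), although 13 of 18 arrays correlated best with their own number, so the numbers were not taken to pair the arrays. Fewer than 12 member probe sets passed the filter in some fits with fewer arrays (11 without PH replicate 1 or 2 or SPH replicate 2, and 9 to 12 when only the groups compared were fitted).

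Scaling moved the calls over all probe sets. PH minus sham had 438 higher and 528 lower as reported, 555 and 320 after quantile normalization, and 628 and 312 with centred arrays, where the median difference was 0.040 in place of -0.11. With quantile normalization, VPH minus PH had 191 and 197 and TDPH minus PH 150 and 114. With a pseudocount of 50 there were 314 and 311 in PH minus sham, 134 and 61 in SPH minus PH, 166 and 94 in VPH minus PH, and 140 and 57 in TDPH minus PH. With only the groups compared, SPH minus PH had 114 and 43.

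Of 156 member differences, 22 changed sign in at least 1 setting, and none of those had been called. Leaving out single arrays, the differences ran as follows. In sham minus normal, Acta2 ran -0.33 to 0.11, Ccn2 -0.036 to 0.39, Col1a1 1370864_at -0.37 to 0.38, Col1a1 1388116_at -0.16 to 0.68 and Tgfbr2 -0.55 to 0.37. In TDPH minus PH, Col1a1 1370864_at ran -0.37 to 0.11 and Tgfb1 -0.25 to 1.02. In SPH minus VPH, Col1a1 1370864_at ran -0.12 to 0.039 and 1388116_at -0.20 to 0.77. In TDPH minus SPH, Col1a1 1388116_at ran -0.53 to 0.42 and Lox 1368172_a_at -0.22 to 0.61. In TDPH minus VPH, Col1a1 1388116_at ran -0.090 to 0.55 and Col1a2 1370155_at -0.059 to 0.30. In the non-additivity contrast, Col1a2 1370155_at ran -0.47 to 0.085 and 1387854_at -0.42 to 0.10. Col1a2 1387854_at in TDPH minus sham ran -0.47 to 0.054, Tgfbr2 in VPH minus sham -0.43 to 0.035, Tgfbr2 in PH minus normal -0.17 to 0.76 and Lox 1368171_at in PH minus sham -0.18 to 0.21. Acta2 in sham minus normal was 0.016 with quantile normalization and 0.046 with centred arrays, and Col1a2 1370155_at in PH minus normal was 0.11 and 0.15. Col1a1 1388116_at in TDPH minus SPH was -0.045 with quantile normalization. With the second table, Tgfb1 in SPH minus VPH was 0.11, Col1a1 1370864_at in TDPH minus VPH -0.010 and Col1a2 1387854_at in the non-additivity contrast 0.030.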
